A study of Mus musculus with 6 samples.

Results

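Glycolysis splits glucose into pyruvate and glycogen metabolism stores and releases it, and 37 genes of these pathways were followed in mouse aorta carrying a heterozygous alteration of Palmd. Its product, palmdelphin, is related to the paralemmins. The genes were chosen by symbol as the glycolytic enzymes with their isoforms, the enzymes of glycogen synthesis and breakdown, and the glycogen regulators laforin and malin with their partners. All 37 symbols were found, on 38 of the 29752 gene entries, because Aldoa has a second short entry. The heterozygotes were PALMD+/- C57BL/6 mice and the controls were wild-type C57BL/6 mice, with 3 aortic RNA-seq libraries in each group. Both groups were 15 weeks old and had eaten a normal diet for 7 weeks, starting at 8 weeks of age. Neither the altered part of Palmd nor whether each library came from 1 animal is stated, so the p-values measure the spread between these samples.

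Hexokinase traps glucose in the cell, phosphofructokinase commits it to glycolysis, and pyruvate kinase forms the pyruvate that lactate dehydrogenase can turn into lactate. Glycogen synthase and the branching enzyme build glycogen, phosphorylase degrades it after activation by phosphorylase kinase, and laforin together with malin keeps it soluble. Many steps have a muscle isoform beside a liver or ubiquitous one, and several of the ubiquitous ones are known targets of hypoxia-inducible factor (HIF). Arterial smooth muscle is known for forming much lactate even with oxygen present.

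The libraries were of nearly equal depth, with 17283951 to 18372131 reads behind the values, which are in FPKM (reads scaled by exon length and library depth). Heterozygote replicate 2 stood apart, with a mean correlation of 0.93 with the other libraries across genes, against 0.96 to 0.971 for the rest. Palmd measured 5.31, 7.19 and 6.21 FPKM in the heterozygotes (replicates 1, 2 and 3, the order kept for all values), against 5.49, 7.88 and 10.1 FPKM in the wild type. The groups overlapped (log2 fold change -0.26, SE 0.21, adjusted p = 0.915 by limma), so the transcript does not check the genotype labels. The smooth muscle actin Acta2 ranged from 3701 to 8367 FPKM, in keeping with the labelled tissue, and all 4 hepatocyte markers were under 1 FPKM. Tagln, also among the smooth muscle markers, was low, at 2.12 to 4.29 FPKM, for a reason that was not tested. The summed level of 8 white adipocyte markers was 1400, 4954 and 1963 FPKM in the heterozygotes, against 1631, 2552 and 3750 FPKM in the wild type. All 8 had their highest value in heterozygote replicate 2, and its summed smooth muscle markers (4726 FPKM) and endothelial markers (205 FPKM) were the lowest of the 6 libraries. Of the 6 endothelial markers, however, Kdr was highest there, at 14.6 FPKM, and Emcn was not the lowest. In bulk tissue, fewer cells of a type and less RNA per cell cannot be told apart.

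Of the 38 entries, 36 had at least 1 FPKM in at least 3 libraries and were tested with all other such genes, 12620 in all, by limma on log2(FPKM + 1). None of the 36 passed an adjusted p of 0.05, and none of the 12620 genes did (0%). With limma-voom on read numbers recovered from the values, the count was also 0. At an unadjusted p under 0.05 stood 5 members, all higher in the heterozygotes (13.9% of those tested, against 4.06% of all genes in that direction), and none was lower (background 2.44%). These were the laforin gene Epm2a and the muscle-type genes Pgam2, Pfkm, Eno3 and Phkg1, and voom gave the same 5 (background 4% higher and 2.47% lower). In 9 members every heterozygote library exceeded every wild-type library (25% of those tested, background 7.8%), and in none was every heterozygote library below (background 5.12%). The median log2 fold change of the members was 0.12, against 0.01 over all tested genes, with 23 members above 0 and 13 below.

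Much of the spread between members lay in heterozygote replicate 2, which held the highest value in 28 of the 36 members, against 26.4% of all tested genes. It exceeded every other library by at least 1.5 times in 16 members, against 5.42% of all tested genes. In 19 members it was the highest and heterozygote replicate 1 the lowest (background 9.59%), so the 2 heterozygote extremes enclosed the wild type. Without heterozygote replicate 2, 35 members were tested and 12 were higher and 23 lower, with a median of -0.29 against 0.03 over all genes. Again no member passed, nor did any of 12385 genes. Unadjusted p was under 0.05 for 6 members that were higher (17.1%, background 7.91%) and 6 that were lower (17.1%, background 6.02%). The groups were then apart for 10 higher members (28.6%, background 20.8%) and 6 lower ones (17.1%, background 12.3%), shares not far from those of all genes.

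**Figure D1:**
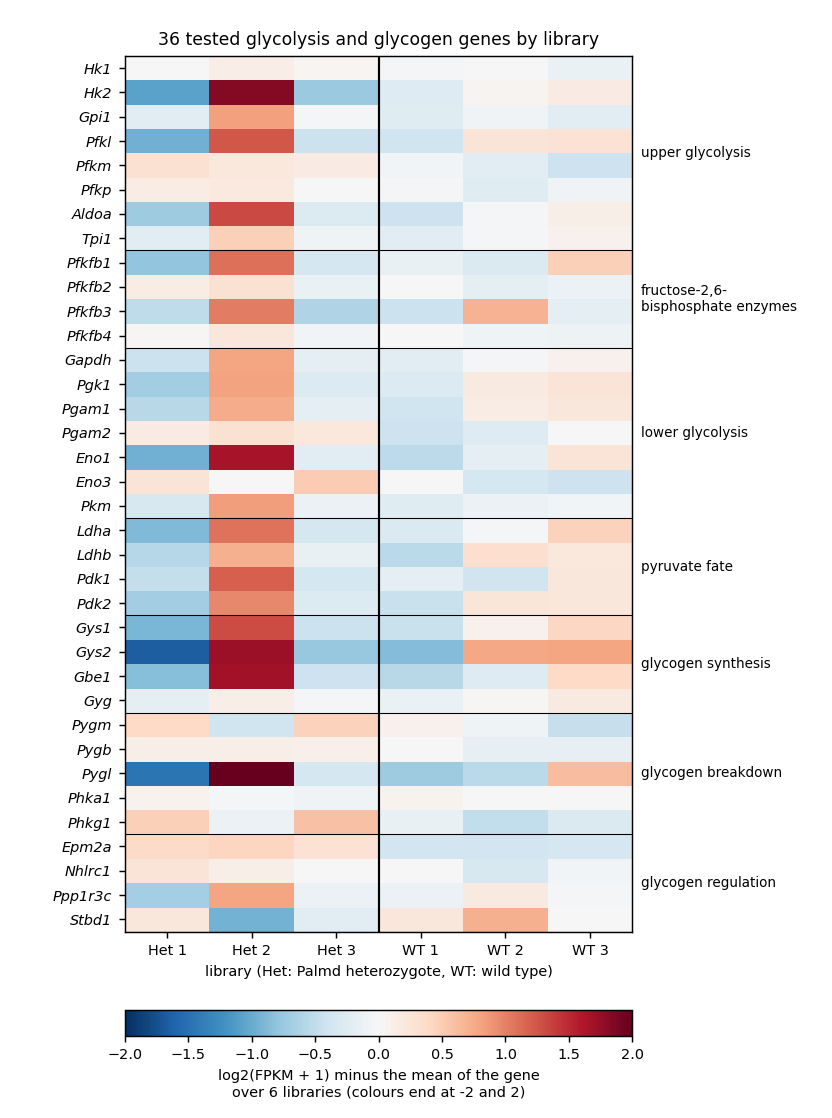
Level of the 36 tested members in each library, as log2(FPKM + 1) minus the mean of the gene over the 6 libraries, with genes in rows by pathway step and libraries in columns (Het: Palmd heterozygote; WT: wild type). Heterozygote replicate 2 holds the highest value in 28 rows, and Stbd1 is the one row where it is the lowest.

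Glycogen regulators gave the member with the smallest p. Epm2a encodes laforin, the glycogen phosphatase mutated in Lafora disease (ENSMUSG00000055493, GRCm38 chromosome 10, 11343404 to 11459644, plus strand). It was at 5.21, 5.42 and 4.78 FPKM in the heterozygotes, against 2.63, 2.65 and 2.75 FPKM in the wild type. All 3 heterozygote libraries lay far above the wild type, heterozygote replicate 2 among them, and the libraries of each group lay close together. The means were 5.14 ± 0.327 FPKM in heterozygotes and 2.68 ± 0.0664 FPKM in the wild type (SD, n = 3 each), a ratio of 1.92. The log2 fold change was 0.74 (SE 0.09), with an adjusted p of 0.231 by limma, which missed the threshold. Without heterozygote replicate 2 it was 0.70 (adjusted p = 0.181). Limma with weights that count divergent libraries less put it at an adjusted p of 0.024. Heterozygote replicate 3 weighed 3.59 and wild type replicate 2 weighed 3.11 there, the others 0.17 (heterozygote replicate 2) to 1.04, so 1 library of each group carried most of the weight. None of its exonic bases lies in an exon of another annotated gene, and none of its 50-base windows occurs in another gene's transcripts.

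Nhlrc1 encodes malin, the ubiquitin ligase that partners laforin. It was at 3.18, 2.77 and 2.51 FPKM in the heterozygotes, against 2.48, 1.78 and 2.35 FPKM in the wild type. The groups did not overlap, but the lowest heterozygote library was nearly level with the highest wild-type one (log2 fold change 0.26, SE 0.13, adjusted p = 0.807). Stbd1, which tethers glycogen to membranes, was at 67.1, 29.4 and 48.9 FPKM in the heterozygotes, against 67.4, 94.2 and 57.7 FPKM in the wild type. It was the one member lowest in heterozygote replicate 2 (log2 fold change -0.63, SE 0.33, adjusted p = 0.817), and the fold change without that library was -0.32. Ppp1r3c, which targets protein phosphatase 1 to glycogen, was at 6.18, 18.7 and 9.57 FPKM in the heterozygotes, against 9.58, 12.0 and 10.1 FPKM in the wild type, and the groups overlapped.

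The 250 bases before the RefSeq start (GRCm38.p6, 5′ to 3′) are printed here for Epm2a and the muscle isoform genes Pgam2 and Eno3, which had an unadjusted p under 0.05 and share no windows with other genes, and for Hk2 and Ldha, glycolytic genes that followed heterozygote replicate 2. Pfkm also had an unadjusted p under 0.05 and shares no windows with other genes, but is not printed. Bases inside annotated exons are left out. Capitals mark matches, on either strand, to ACGTG or GCGTG (the core of the HIF site), CACGTG or CAGCTG (E-boxes) and AGGTCA (a nuclear receptor half-site). The E-box CACGTG contains ACGTG.
Epm2a: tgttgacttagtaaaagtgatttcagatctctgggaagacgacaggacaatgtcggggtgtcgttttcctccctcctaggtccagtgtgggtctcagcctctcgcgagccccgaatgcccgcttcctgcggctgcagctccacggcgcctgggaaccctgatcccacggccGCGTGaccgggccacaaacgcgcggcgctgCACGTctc
Pgam2: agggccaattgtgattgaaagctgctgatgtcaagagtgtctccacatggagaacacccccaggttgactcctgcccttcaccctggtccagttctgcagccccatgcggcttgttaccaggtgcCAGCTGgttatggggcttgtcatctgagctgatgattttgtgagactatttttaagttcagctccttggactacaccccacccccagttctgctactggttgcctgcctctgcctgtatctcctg
Eno3: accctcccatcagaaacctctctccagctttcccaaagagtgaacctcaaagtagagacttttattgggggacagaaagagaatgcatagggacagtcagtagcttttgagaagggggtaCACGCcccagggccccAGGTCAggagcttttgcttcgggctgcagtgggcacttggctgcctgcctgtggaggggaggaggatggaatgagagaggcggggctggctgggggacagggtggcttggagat
Hk2: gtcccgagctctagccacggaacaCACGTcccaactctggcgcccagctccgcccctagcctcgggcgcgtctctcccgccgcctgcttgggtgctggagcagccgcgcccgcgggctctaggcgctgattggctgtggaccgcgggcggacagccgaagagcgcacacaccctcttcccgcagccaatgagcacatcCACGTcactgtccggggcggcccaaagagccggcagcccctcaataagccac
Ldha: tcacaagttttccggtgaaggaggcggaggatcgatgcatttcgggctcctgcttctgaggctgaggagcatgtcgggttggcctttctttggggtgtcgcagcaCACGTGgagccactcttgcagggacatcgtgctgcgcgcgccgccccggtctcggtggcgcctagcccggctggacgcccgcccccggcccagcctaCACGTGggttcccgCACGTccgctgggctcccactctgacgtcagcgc
The coordinates are chr10:11343195-11343403 on the plus strand for Epm2a, chr11:5803797-5804046 on the minus strand for Pgam2, chr11:70656926-70657175 on the plus strand for Eno3, chr6:82774455-82774704 on the minus strand for Hk2 and chr7:46845554-46845803 on the plus strand for Ldha. In the window of the most upstream start, ACGTG or GCGTG was found in 26 of the 36 members with a RefSeq promoter (72.2%), against 38.6% of 32851 promoters of the same length. Guanine and cytosine made up a median of 59.4% of the members' windows and 52.4% of all windows, and the motif shares were not adjusted for this. CACGTG was found in 4 members (11.1%, against 6.02% of all promoters), CAGCTG in 8 (22.2%, against 13.0%) and AGGTCA in 4 (11.1%, against 14.0%). Ldha held 2 copies of CACGTG, and Pgam2 held CAGCTG and neither HIF core. Among members not printed, Pfkm held CACGTG. Of all members highest in heterozygote replicate 2, Hk1, Gpi1, Pfkfb1, Aldoa, Tpi1, Pgam2, Pkm, Gbe1 and Gys1 held neither HIF core. The others of them that have a RefSeq promoter all held a HIF core, Gapdh, Pgk1 and Eno1 among them. Such matches describe the letters only.

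Several muscle-type genes were higher in the heterozygotes, while others, Gys1 and Phka1 among them, were not. Pfkm, muscle phosphofructokinase (ENSMUSG00000033065, chromosome 15, 98092589 to 98132451), was at 32.2, 30.2 and 29.2 FPKM in the heterozygotes, against 25.1, 22.4 and 19.3 FPKM in the wild type. Pgam2, muscle phosphoglycerate mutase (chromosome 11, 5801640 to 5803733), was at 3.91, 4.41 and 4.04 FPKM in the heterozygotes, against 2.28, 2.66 and 3.37 FPKM in the wild type. In both genes all heterozygote libraries were above all wild-type ones. The log2 fold change was 0.45 for Pfkm (SE 0.13) and 0.45 for Pgam2 (SE 0.13), each with an adjusted p of 0.616. Pgam2 rested on few recovered reads, 60, 64 and 62 in the heterozygotes, against 35, 41 and 51 in the wild type. With voom its SE was 0.22 (log2 fold change 0.58, adjusted p = 0.729). Exons of other annotated genes, Gm26513 and Senp1, cover 10.7% of the exonic bases of Pfkm and none of Pgam2.

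Eno3 encodes muscle enolase (chromosome 11, 70657202 to 70662513) and was at 8.88, 7.35 and 10.7 FPKM in the heterozygotes, against 7.21, 5.48 and 5.20 FPKM in the wild type. Phkg1, the muscle catalytic subunit of phosphorylase kinase (chromosome 5, 129863421 to 129898549), was at 4.64, 2.72 and 5.06 FPKM in the heterozygotes, against 2.67, 1.88 and 2.30 FPKM in the wild type. Neither gene had its highest value in heterozygote replicate 2, and the closest libraries of the 2 groups were nearly level. The log2 fold change of Eno3 was 0.52 (SE 0.17, adjusted p = 0.656), and 0.64 without heterozygote replicate 2. That of Phkg1 was 0.62 (SE 0.21, adjusted p = 0.686), and 0.84 without that library. With library weights both passed beside Epm2a, at adjusted p = 0.0362 for Eno3 and 0.0308 for Phkg1, so that 3 of 36 members were called higher (8.33%, background 1.19%). The most heavily weighted libraries hold the highest and the lowest value of Phkg1. Phkg1 shares 25.0% of its 50-base windows with other genes and 9.68% of its exonic bases with Sumf2 on the opposite strand, and as the library kit is not described as keeping strand, the source of such reads is uncertain.

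Pygm, muscle glycogen phosphorylase, was at 26.5, 14.7 and 27.6 FPKM in the heterozygotes, against 20.9, 18.6 and 14.1 FPKM in the wild type. Heterozygote replicate 2 lay among the wild-type libraries and the groups overlapped (log2 fold change 0.31, SE 0.27, adjusted p = 0.923). Without it the fold change was 0.59 (SE 0.16, adjusted p = 0.281) and the groups no longer overlapped. The regulatory subunit Phka1 of phosphorylase kinase was at 3.92, 3.56 and 3.50 FPKM in the heterozygotes, against 3.93, 3.66 and 3.66 FPKM in the wild type. The 12 skeletal muscle markers summed to 4.57 to 5.38 FPKM in the heterozygotes and 3.84 to 6.70 FPKM in the wild type. Of these, 9 were under 1 FPKM in all libraries, and the fast myosins Myh1, Myh2 and Myh4 with Pvalb and Tnnc2 were at or near 0. The rest differed in direction. Mylpf, too low for a test, was at 0.774, 1.31 and 1.13 FPKM in the heterozygotes, against 0.67, 0.666 and 0.523 FPKM in the wild type. By limma the log2 fold change was -0.52 for Acta1 (SE 0.24, adjusted p = 0.774) and 0.07 for Tnnt3 (SE 0.18, adjusted p = 0.979). The part of skeletal muscle RNA in the muscle-type members was not tested. Cardiac markers summed to 4.08 to 5.46 FPKM in the heterozygotes and 2.91 to 5.07 FPKM in the wild type.

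**Figure D2:**
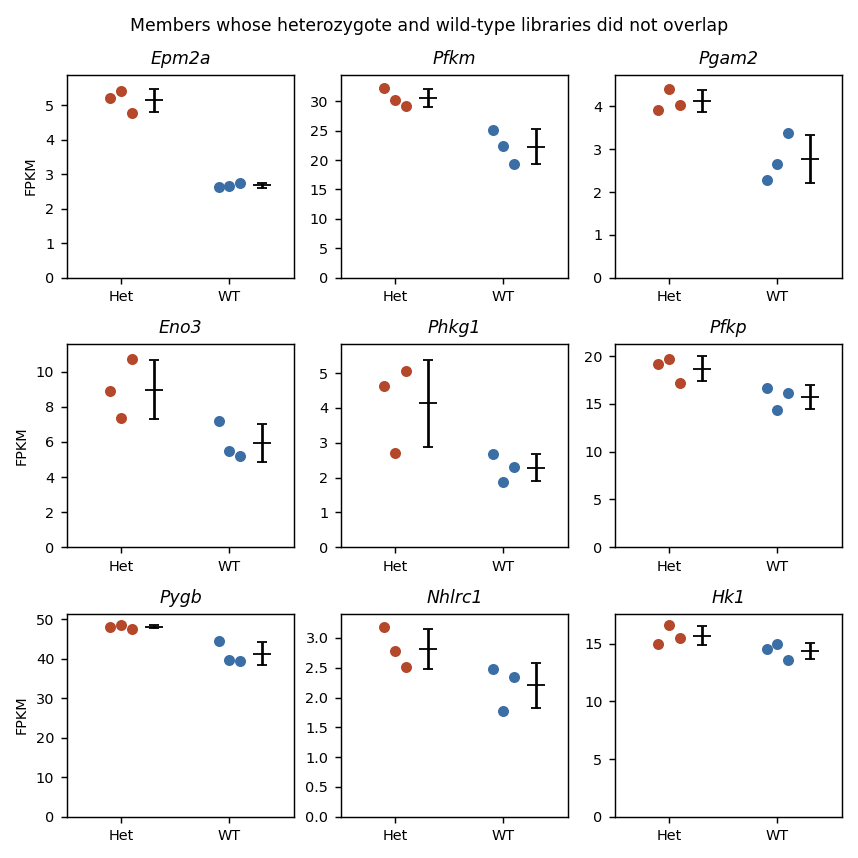
FPKM in each library (points) with the mean and SD (bar, n = 3) for the 9 members whose groups did not overlap, heterozygote (Het) left of wild type (WT), each axis starting at 0. The gap between groups is widest relative to the spread in Epm2a, at 4.78 to 5.42 FPKM in heterozygotes against 2.63 to 2.75 FPKM in the wild type.

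Among the other members whose groups did not overlap, the differences were small. Pygb, brain-type glycogen phosphorylase and the most abundant of the 3 phosphorylases on average, was at 48.1, 48.5 and 47.7 FPKM in the heterozygotes, against 44.6, 39.7 and 39.5 FPKM in the wild type. The log2 fold change was 0.22 (SE 0.11, adjusted p = 0.801). Pfkp, platelet-type phosphofructokinase, was at 19.1, 19.7 and 17.2 FPKM in the heterozygotes, against 16.7, 14.3 and 16.2 FPKM in the wild type. Its log2 fold change was 0.23 (SE 0.11, adjusted p = 0.781), and 5.58% of its exonic bases lie in Pitrm1 on the opposite strand. Hk1, the widely expressed hexokinase, was at 15.0, 16.6 and 15.4 FPKM in the heterozygotes, against 14.6, 14.9 and 13.6 FPKM in the wild type, with a log2 fold change of 0.12 (SE 0.09, adjusted p = 0.914).

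In 4 upper glycolytic genes, Hk2, Pfkl, Aldoa and Gpi1, heterozygote replicate 2 lay far above the other heterozygotes, unlike in Hk1, Pfkm and Pfkp. Hk2, the insulin-responsive hexokinase (chromosome 6, 82725025 to 82774454), was at 6.64, 56.6 and 8.66 FPKM in the heterozygotes, against 12.5, 15.8 and 17.1 FPKM in the wild type. Heterozygote replicate 2 was above and the other heterozygotes were below all wild-type libraries. The log2 fold change over all 6 libraries was 0.02 (SE 0.74, adjusted p = 1.00) and without replicate 2 it was -0.90 (SE 0.16, adjusted p = 0.219). Pfkl, the liver phosphofructokinase, was at 12.1, 59.2 and 18.0 FPKM in the heterozygotes, against 18.3, 29.4 and 30.0 FPKM in the wild type. Aldoa, the main aldolase, was at 118, 485 and 160 FPKM in the heterozygotes, against 144, 189 and 211 FPKM in the wild type. Phosphoglucose isomerase Gpi1 was at 42.6, 89.7 and 48.7 FPKM in the heterozygotes, against 42.1, 47.8 and 42.5 FPKM in the wild type. Triose phosphate isomerase Tpi1 varied less, with 75.6, 124 and 83.0 FPKM in the heterozygotes, against 76.3, 86.7 and 93.6 FPKM in the wild type.

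Aldoc, the brain aldolase, did not reach the level needed for a test. It was at 0.134, 4.59 and 0.0671 FPKM in the heterozygotes, against 0.218, 0.117 and 0.255 FPKM in the wild type. Its recovered reads were 8, 259 and 4 in the heterozygotes, against 13, 7 and 15 in the wild type, so nearly all of its signal lay in heterozygote replicate 2. The 4 Schwann cell markers summed to 8.93, 59.3 and 11.2 FPKM in the heterozygotes, against 9.07, 7.33 and 14.4 FPKM in the wild type, and their part in the Aldoc value was not tested. The second Aldoa entry was at 0.48 FPKM or less in every library.

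The bifunctional enzymes that set fructose-2,6-bisphosphate, the activator of phosphofructokinase, were led by Pfkfb3. It was at 19.6, 58.4 and 18.2 FPKM in the heterozygotes, against 20.6, 46.0 and 24.8 FPKM in the wild type. Pfkfb1 was at 1.54, 8.38 and 2.43 FPKM in the heterozygotes, against 2.93, 2.59 and 5.11 FPKM in the wild type. Heterozygote replicate 2 was the highest library for all 4 of these genes. Pfkfb2 and Pfkfb4 stayed between 0.855 and 2.88 FPKM, and the log2 fold changes of the family lay between -0.05 and 0.20.

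Lower glycolysis followed the same order of libraries apart from its muscle isoforms. Eno1, the ubiquitous enolase, was at 51.9, 321 and 86.9 FPKM in the heterozygotes, against 70.5, 89.0 and 121 FPKM in the wild type. Pgk1 was at 44.1, 126 and 59.3 FPKM in the heterozygotes, against 58.9, 80.9 and 85.6 FPKM in the wild type. Pkm, pyruvate kinase, was at 107, 242 and 124 FPKM in the heterozygotes, against 114, 124 and 130 FPKM in the wild type. In each of the 3 genes heterozygote replicate 2 was the highest library and heterozygote replicate 1 the lowest. Pgam1 was at 72.7, 180 and 94.1 FPKM in the heterozygotes, against 81.3, 119 and 125 FPKM in the wild type. Gapdh was at 9.39, 23.1 and 11.3 FPKM in the heterozygotes, against 10.9, 12.6 and 13.9 FPKM in the wild type. Sharing of sequence makes several of these levels uncertain. Other genes, mostly processed pseudogenes, hold 82.5% of the 50-base windows of Gapdh (222 genes), 72.2% of those of Eno1, 68.0% of those of Pgk1, 41.5% of those of Pgam1 and 34.4% of those of Pkm.

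At the fate of pyruvate, Ldha, the lactate dehydrogenase subunit that favours lactate formation (chromosome 7, 46841475 to 46855627), was at 68.9, 274 and 100.4 FPKM in the heterozygotes, against 104, 126 and 177 FPKM in the wild type. Without heterozygote replicate 2 both remaining heterozygotes were below the wild type (log2 fold change -0.67, SE 0.26, adjusted p = 0.337), and with it the fold change was -0.10 (SE 0.51, adjusted p = 0.991). Ldhb was at 43.8, 108 and 59.0 FPKM in the heterozygotes, against 44.9, 82.6 and 76.3 FPKM in the wild type. Pdk2, a kinase that shuts pyruvate dehydrogenase, was at 17.0, 55.6 and 23.3 FPKM in the heterozygotes, against 20.5, 33.4 and 33.2 FPKM in the wild type. The less abundant Pdk1 was likewise highest in heterozygote replicate 2, at 10.9 FPKM there.

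In glycogen synthesis, Gys2, the liver glycogen synthase, was at 1.30, 22.6 and 3.26 FPKM in the heterozygotes, against 2.92, 11.3 and 11.5 FPKM in the wild type (log2 fold change -0.46, SE 0.91, adjusted p = 0.968). The muscle synthase Gys1 was at 7.10, 36.7 and 10.3 FPKM in the heterozygotes, against 10.2, 15.2 and 19.3 FPKM in the wild type. Gbe1, the branching enzyme, was at 5.66, 37.2 and 7.98 FPKM in the heterozygotes, against 7.19, 8.97 and 14.9 FPKM in the wild type. All 3 genes had heterozygote replicate 2 highest and heterozygote replicate 1 lowest. The primer protein glycogenin, Gyg, varied least of the 4, with 19.1, 24.1 and 21.6 FPKM in the heterozygotes, against 19.9, 22.2 and 25.1 FPKM in the wild type.

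Liver phosphorylase Pygl had the widest range of the phosphorylases. It was at 4.65, 82.8 and 11.2 FPKM in the heterozygotes, against 8.42, 9.65 and 22.9 FPKM in the wild type. Heterozygote replicate 2 was 7.30 times the mean of the other libraries (log2 fold change 0.42, SE 0.97, adjusted p = 0.973), and without it the log2 fold change was -0.69.

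The mean log2 level of the 8 white adipocyte markers was 5.77, 8.10 and 6.36 in the heterozygotes, against 6.47, 6.78 and 7.53 in the wild type. The extremes were thus the same libraries as in the 19 members that were highest in heterozygote replicate 2 and lowest in heterozygote replicate 1. Brown adipocyte markers summed to 71.9, 1285 and 284 FPKM in the heterozygotes, against 230, 1029 and 824 FPKM in the wild type. With the white adipocyte level as a covariate no gene passed, and 32 of the 36 members had a fold change above 0, with a median of 0.21 on the log2 scale, against 0.01 over all genes. Unadjusted p was then under 0.05 for 14 higher members (38.9%, background 9.04%) and 1 lower member (2.78%, background 8.9%). Heterozygote replicate 2 has the highest covariate value, and how far the 14 depended on that library in the covariate fit was not tested. In the fits without the covariate, leaving it out took Pygl from 0.42 to -0.69 and Eno1 from 0.31 to -0.44. It took Gbe1 from 0.27 to -0.50 and Aldoa from 0.22 to -0.38. Pdk1 and Pkm also fell below 0, while Gpi1, Pfkm, Pfkp, Pgam2, Eno3, Pygb, Phkg1 and Epm2a stayed above. With the covariate, the smallest adjusted p was 0.057, for Epm2a, and its log2 fold change was 0.74 with or without the covariate. The part of adipocyte RNA in the level of the other members was not tested.

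**Figure D3:**
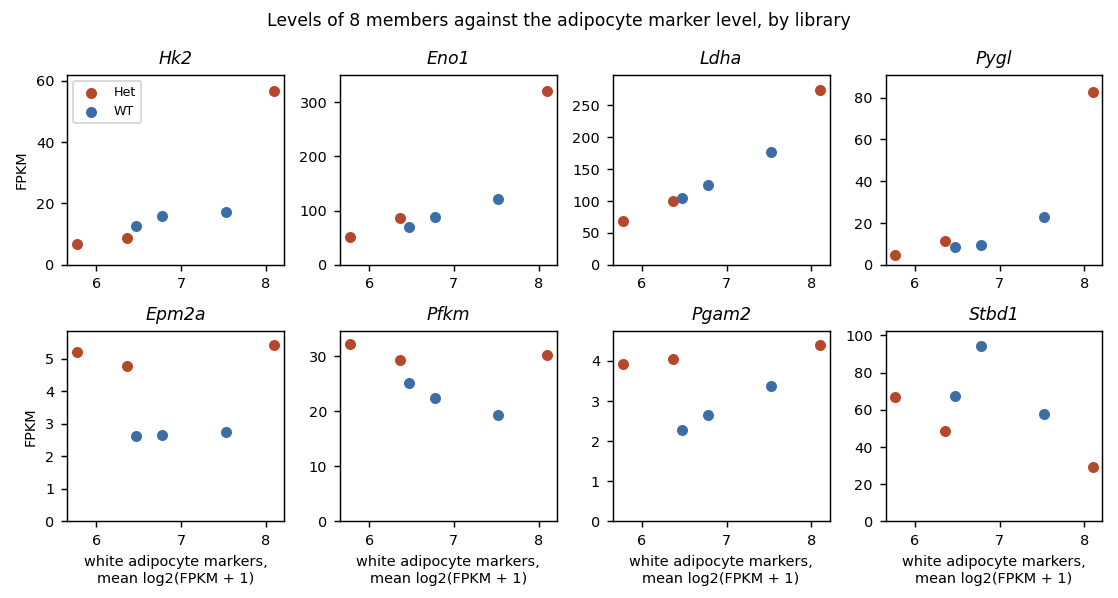
FPKM of selected members (vertical axes) against the mean log2(FPKM + 1) of 8 white adipocyte markers (horizontal axes), 1 point per library, heterozygote and wild type in different colours. Heterozygote replicate 2 is the rightmost point at 8.10, and the Epm2a values of the heterozygotes lie at 4.78 to 5.42 FPKM across the whole range.

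**Figure D4:**
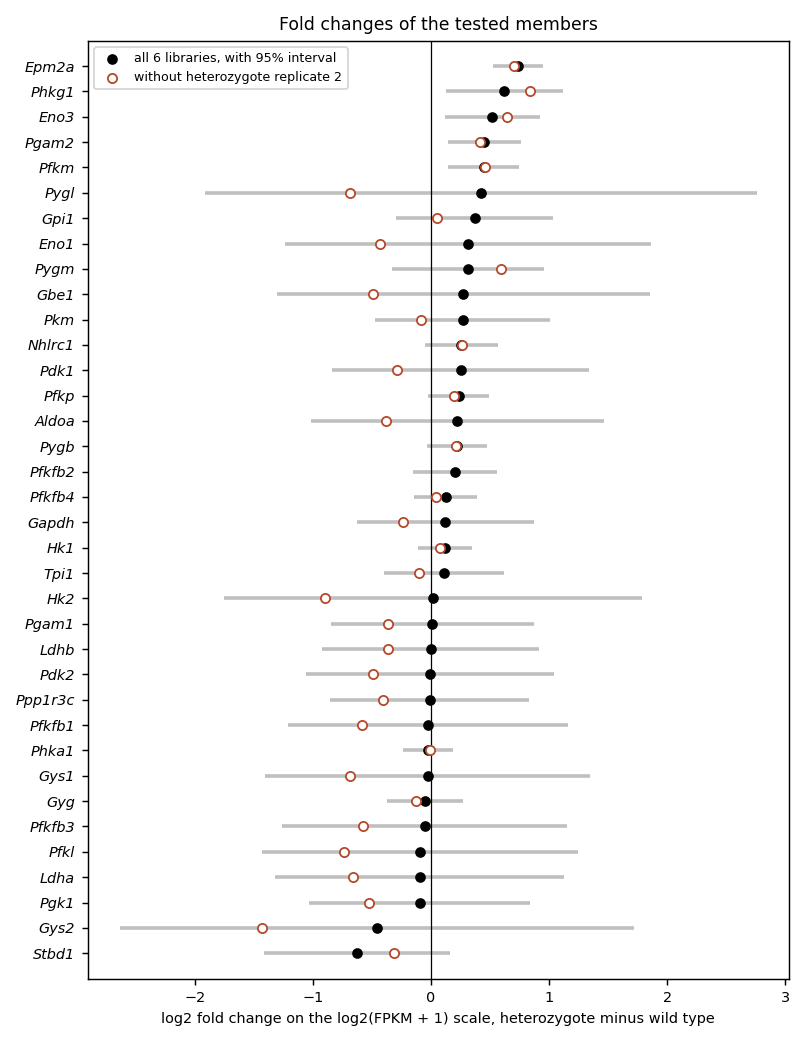
Log2 fold change of each tested member, heterozygote minus wild type, over all 6 libraries (filled points, with the 95% interval from limma) and without heterozygote replicate 2 (open points). The intervals of Epm2a, Phkg1, Eno3, Pgam2 and Pfkm lie above 0, and Hk2 stands at 0.02 over all libraries and at -0.90 without that library.

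The balance between the member isoforms of a step does not depend on the depth of a library. Among hexokinases, Hk2 made up 30.7, 77.3 and 35.9% of the summed FPKM of Hk1 and Hk2 in the heterozygotes, against 46.2, 51.4 and 55.8% in the wild type. Pfkm made up 50.8, 27.7 and 45.4% of the sum of Pfkm, Pfkp and Pfkl in the heterozygotes, against 41.8, 33.9 and 29.5% in the wild type. Eno3 made up 14.6, 2.24 and 11.0% of the sum of Eno3 and Eno1, without Eno2, in the heterozygotes, against 9.28, 5.80 and 4.12% in the wild type. In heterozygote replicates 1 and 3 Pfkm and Eno3 thus held more, and Hk2 less, than in any wild-type library, while heterozygote replicate 2 lay beyond the wild type on the other side. For all 12 shares computed the groups overlapped, and the exact two-sided permutation test gave p-values of 0.3 to 1, all 1 after Benjamini-Hochberg adjustment, where 3 libraries against 3 cannot go below 0.1. Without heterozygote replicate 2 the groups were apart for the shares of Hk2, Pfkm, Pfkl, Pgam2, Eno3 and Pygm. That sets 2 libraries against 3, where the levels of 20.8% of all genes were apart as higher and 12.3% as lower. The shares were not tested without that library, and those of Pfkm and Pfkl, from 1 step, depend on each other.

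**Figure D5:**
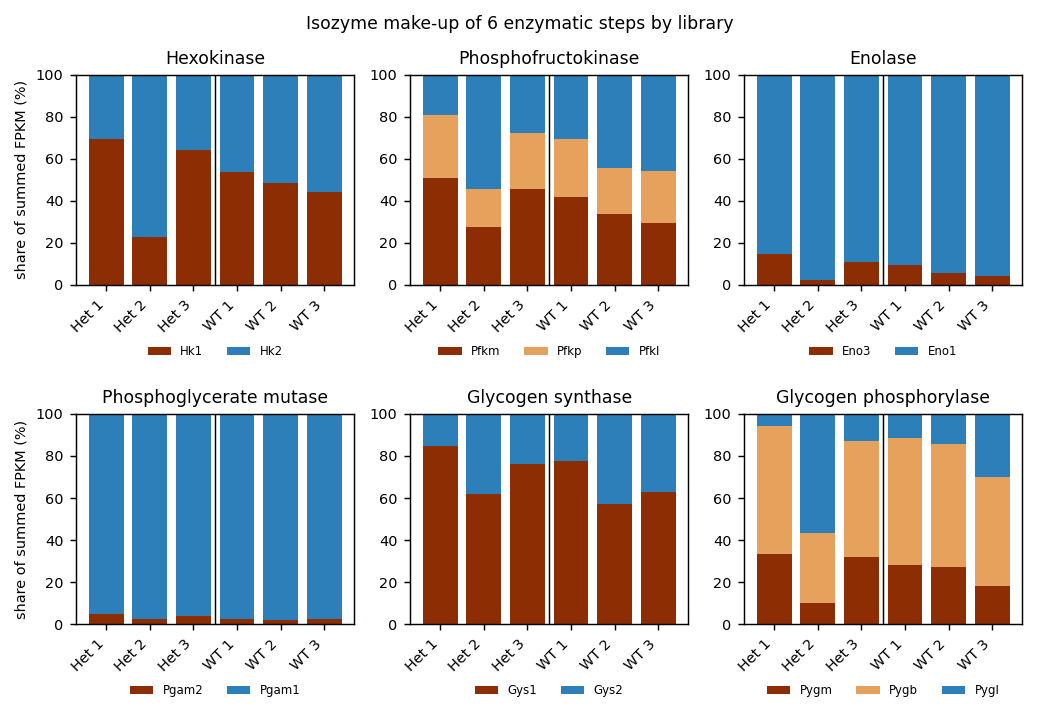
Share of each isoform in the summed FPKM of the members of its step (percent, stacked bars), 1 bar per library, the 3 heterozygotes left of the 3 wild types. Pygl takes 56.7% of glycogen phosphorylase in heterozygote replicate 2, against 5.87 and 12.9% in the other heterozygotes and 11.4 to 29.9% in the wild type.

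Genes next to these pathways were counted from lists that hold no member, and none of their genes passed. All 18 citric acid cycle genes had their highest value in heterozygote replicate 2, and 15 had a fold change below 0 (median -0.17, and -0.61 with 17 lower when that library was left out). In the pentose phosphate pathway, which branches from glucose-6-phosphate, 7 of 8 genes were highest in that library, and the median log2 fold change was 0.10 with it and -0.43 without it, where all 8 were lower. Of the 12 genes of pyruvate dehydrogenase, its regulators and the mitochondrial pyruvate carrier, 6 were higher and 6 lower, but 11 were lower without heterozygote replicate 2 (median -0.60, against -0.03 with it). Pdk4, the kinase induced by fasting, was at 22.0, 41.7 and 25.2 FPKM in the heterozygotes, against 35.1, 65.2 and 77.2 FPKM in the wild type (log2 fold change -0.95, SE 0.35, adjusted p = 0.731).

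The glucose and lactate transporters split, with 2 of 8 tested genes higher and 6 lower. The insulin-responsive transporter Slc2a4 was at 10.4, 99.6 and 18.0 FPKM in the heterozygotes, against 21.6, 22.5 and 41.3 FPKM in the wild type. The ubiquitous transporter Slc2a1 was at 11.9, 8.88 and 13.2 FPKM in the heterozygotes, against 16.0, 12.8 and 11.9 FPKM in the wild type, and did not follow heterozygote replicate 2. Among 13 other tested glycogen genes 7 were higher and 6 lower, and 10 were lower without heterozygote replicate 2. Their widest range was in Ppp1r3b, a glycogen-targeting subunit of protein phosphatase 1, at 2.24, 55.5 and 6.46 FPKM in the heterozygotes, against 10.9, 9.97 and 12.3 FPKM in the wild type. Of 9 other tested glycolytic genes 6 were higher, Hk3 with the smallest p (log2 fold change 0.36, SE 0.14, adjusted p = 0.762). Of 4 tested gluconeogenic genes 3 were higher (median 0.10, and -0.32 without heterozygote replicate 2), and Pcx, pyruvate carboxylase, reached 404 FPKM in heterozygote replicate 2 against 39.0 to 178 FPKM in the other 5 libraries.

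Hypoxia-induced genes outside glycolysis were counted beside the HIF cores found in the promoters. Of 14 tested, 3 were higher and 11 lower (median -0.19), and 8 were lower without heterozygote replicate 2 (median -0.12). In 3 of the 14, Higd1a, Ndrg1 and P4ha2, every heterozygote library was below every wild-type one (background 5.12%), though the closest libraries were nearly level. In none was every heterozygote library above (background 7.8%). P4ha1, a collagen prolyl hydroxylase, was at 37.3, 16.9 and 48.6 FPKM in the heterozygotes, against 46.0, 65.6 and 75.5 FPKM in the wild type (log2 fold change -0.94, SE 0.40, adjusted p = 0.770), and its groups overlapped. The transcript of Hif1a, the oxygen-regulated HIF subunit, was at 17.0, 12.0 and 15.2 FPKM in the heterozygotes, against 16.7, 15.3 and 13.8 FPKM in the wild type. All 4 tested genes of the HIF subunits and Vhl had fold changes below 0, from -0.50 for Epas1 to -0.02 for Vhl, with no adjusted p under 0.05. In 1 of the 4, Epas1, every heterozygote library was below every wild-type one (background 5.12%). Epas1 was at 167, 84.6 and 149 FPKM in the heterozygotes, against 191, 180 and 177 FPKM in the wild type. Without heterozygote replicate 2 only 2 of the 4 were below 0, with Epas1 at -0.21, Hif1a at 0.08 and Vhl at 0.01.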

How the data were processed

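Aortic RNA from 3 PALMD+/- and 3 wild-type libraries was selected on poly-T beads and primed with random hexamers, per the labels' protocols. The authors deposited 1 table per library in FPKM-type values (reads scaled by exon length and library reads), a unit read from the values. Whether reads or fragments were counted, by which tool and on which annotation, is not given in the sources used here. GRCm38, Bowtie2 2.2.3, TopHat2 and HISAT2 2.1.0 are listed without roles, per the submitters' processing notes. Replicate numbers follow the titles. The column headers number the heterozygotes differently, within the same group.

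A count model had been planned, but the unit is normalized, so limma 3.58.1 with a mean-variance trend (R 4.3.3) was run on log2(FPKM + 1), heterozygote minus wild type. Such fold changes understate those of low genes. A gene needed 1 FPKM or more in 3 or more libraries to be tested, with Benjamini-Hochberg adjustment over all of them at 0.05. Reads were recovered with GENCODE M21 exon lengths, and 95.1 to 95.6% of genes with up to 20 reads came out whole within 0.01 reads. They served for depth and for voom, which called 0 genes (815 at an unadjusted p under 0.05, against 820 in limma). Alternatives were another pseudocount, other filters, median-ratio scaling, voom, library weights, an adipocyte covariate, a replicate block and leaving out each library. The limma fit was also run on simulated data, with independent noise of the same size for a gene in all 6 libraries. Such data cannot show how the fit handles a divergent library like heterozygote replicate 2. Windows of 50 bases of the longest coding transcript were searched in all other transcripts.

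The members and gene lists were chosen with earlier results of these data known. Per-library values are given for every member with an unadjusted p under 0.05 or groups apart and for the most abundant isoform of each step, and a few genes of each list were named for their p or, after their values were seen, for their range. Python 3.11.15, numpy 2.4.6, pandas 2.3.3, scipy 1.17.1 and matplotlib 3.10.9 were used.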

Additional observations from a re-analysis of the deposited data

How the results depend on the processing

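No member passed the threshold under any alternative except library weights, and the count of genes past it was 0 to 1 over the fits that left out 1 library each (1 without heterozygote replicate 1, heterozygote replicate 3 or wild type replicate 2). With library weights, 232 genes passed, 3 of them members. Without each library in turn, the number of members whose groups did not overlap was 9 to 11 for higher ones and 0 to 6 for lower ones. The 6 came without heterozygote replicate 2. With a filter of 5 FPKM, 27 members were tested, and 5 were higher with groups that did not overlap. The median log2 fold change of the members ran from -0.29 without heterozygote replicate 2 to 0.34 without heterozygote replicate 1. The log2 fold change of Epm2a lay between 0.68 and 0.94 in every fit that tested it.

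Of 279 member fold changes recomputed other than by leaving out a library, 21 changed sign, and of 213 recomputed without a library, 46 did. In all, 15 members changed sign in none. Hk2 had a log2 fold change of -0.014 with a pseudocount of 0.1, -0.0093 with voom and -0.72 with library weights. Pgam1 was at -0.0078 with median-ratio scaling. Library weights put Aldoa at -0.22, Tpi1 at -0.056, Gapdh at -0.14, Pgam1 at -0.29, Eno1 at -0.11, Pdk1 at -0.070, Gbe1 at -0.23 and Pygl at -0.086. The white adipocyte covariate put Pfkl at 0.065, Pfkfb1 at 0.12, Pfkfb3 at 0.054, Pgk1 at 0.012, Ldha at 0.053, Ldhb at 0.094, Pdk2 at 0.11, Gys1 at 0.14 and Ppp1r3c at 0.080. The ranges of the log2 fold change over the fits without 1 library were -0.90 to 0.56 for Hk2, -0.74 to 0.36 for Pfkl, -0.58 to 0.36 for Pfkfb1, -0.58 to 0.28 for Pfkfb3, -0.38 to 0.63 for Aldoa, -0.10 to 0.25 for Tpi1, -0.24 to 0.36 for Gapdh, -0.53 to 0.22 for Pgk1, -0.36 to 0.29 for Pgam1, -0.44 to 0.87 for Eno1, -0.086 to 0.50 for Pkm, -0.67 to 0.32 for Ldha, -0.36 to 0.28 for Ldhb, -0.29 to 0.55 for Pdk1, -0.49 to 0.34 for Pdk2, -0.69 to 0.42 for Gys1, -1.43 to 0.25 for Gys2, -0.50 to 0.76 for Gbe1, -0.13 to 0.032 for Gyg, -0.69 to 1.26 for Pygl and -0.40 to 0.32 for Ppp1r3c. The cause was not tested.

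The replicate numbers in the titles gave no clear sign of pairing. The deviations of same-numbered libraries from their group means correlated at 0.508, -0.088 and -0.342, against -0.541 to 0.551 for other-numbered ones. With 3 libraries in each group, such correlations cannot decide whether the samples were paired. With the replicate number as a block, 0 genes and 0 members passed, and the median of the members was 0.12. Having 3 libraries in each group limits every test here.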
